A study of Arabidopsis thaliana with 8 samples.

Results

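Salicylic acid is the hormone that switches on much of the plant's defence against pathogens that feed on living tissue, and 10 Arabidopsis loci that stand for its synthesis, perception and output were followed here through floral stems of msh1 and wild-type plants. They were chosen by locus identifier: ICS1 (AT1G74710), EDS1 (AT3G48090), PAD4 (AT3G52430), NPR1 (AT1G64280), WRKY70 (AT3G56400), WRKY18 (AT4G31800), PR1 (AT2G14610), PR2 (AT3G57260), PR5 (AT1G75040) and PCC1 (AT3G22231). All 10 were found among the 32833 loci listed, and all 10 passed the filter on low counts that left 21202 genes for testing. The measure was the number of mRNA sequencing reads assigned to each gene in 8 libraries, which form 4 groups of 2 replicates that the labels call biological.

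All plants had the Col-0 background and grew under long days, and the tissue was floral stem. The groups were msh1 TRAP, WT TRAP, msh1 Total and WT Total. MSH1 encodes a relative of bacterial DNA mismatch repair proteins that acts in plastids and mitochondria, and the allele in the msh1 plants is not given in the sources used here. TRAP (translating ribosome affinity purification) recovers mRNA on ribosomes that carry a tagged ribosomal protein, here FLAG::RPL18 driven by the MSH1 promoter. A TRAP library therefore reports on ribosome-bound mRNA of cells in which that promoter is active, whereas a Total library reports on RNA of the whole stem. The labels do not say whether TRAP and Total samples came from the same plants. In such bulk samples, fewer cells of a type and less RNA per cell cannot be told apart.

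In Arabidopsis most salicylic acid is made in the plastid from isochorismate, which ICS1 produces. The lipase-like proteins EDS1 and PAD4 act together upstream and raise its synthesis, NPR1 is a receptor of the hormone, and with TGA factors it turns on genes for WRKY transcription factors and for pathogenesis-related (PR) proteins. PR1 is the usual marker of an active pathway in leaves.

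Libraries held between 7568728 and 13611280 reads in genes, and levels are given as CPM, reads scaled to a common library size, normalised by the trimmed mean of M-values (TMM) method. A count of 3, taken as the floor, stood for 0.207 to 0.385 CPM on this scale, a limit that covers counting error only. The MSH1 transcript was higher in the libraries labelled msh1, with 36.3 and 22.5 CPM in msh1 TRAP, against 12.3 and 14.0 CPM in WT TRAP, and 27.9 and 30.8 CPM in msh1 Total, against 9.27 and 9.61 CPM in WT Total, so its level is no check of the loss of function that the label implies. RPL18, the gene of the tagged protein, stood at 849 and 1862 CPM in msh1 TRAP, against 278 and 269.5 CPM in WT TRAP, and 344 and 328 CPM in msh1 Total, against 293 and 273 CPM in WT Total, and these counts do not tell the native gene from the construct. Markers of tissues and cell types also moved with genotype. The summed level of 12 seed markers was 58.1 and 41.9 CPM in msh1 TRAP, against 938.9 and 2038.7 CPM in WT TRAP, and 115.1 and 294.3 CPM in msh1 Total, against 2534.8 and 2113.4 CPM in WT Total. All 10 of the seed markers tested fell in msh1 in both fractions, and EM1 and EM6, which were not tested, were at 0 in some libraries. Of 6 stem vascular and fibre markers, 4 fell in msh1 TRAP relative to WT TRAP, with sums of 522.3 and 480.8 CPM in msh1 TRAP and 1246.4 and 1506.9 CPM in WT TRAP. Of 7 epidermis markers 6 fell in the same comparison. In msh1 Total against WT Total edgeR called 0 of the 6 stem vascular and fibre markers, and DESeq2 called 3. There both called 0 of the 7 epidermis markers. Over all genes tested, 20.8% were called lower in msh1 TRAP against WT TRAP and 3.07% in msh1 Total against WT Total. The part of these tissue differences in the results on the 10 genes was not tested.

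The stretch of 250 bases before the transcription start is shown for the gene with the largest genotype difference (PCC1), for both WRKY genes and for ICS1, which fell in msh1. These sequences are from RefSeq's TAIR10.1 assembly, 5′ to 3′ on the strand of the gene, and capitals mark TTGAC, the core of the W-box that WRKY factors bind, or TGACG, the core of the element that TGA factors bind, on either strand.
PCC1 promoter, chr3:7846834-7847083, minus strand: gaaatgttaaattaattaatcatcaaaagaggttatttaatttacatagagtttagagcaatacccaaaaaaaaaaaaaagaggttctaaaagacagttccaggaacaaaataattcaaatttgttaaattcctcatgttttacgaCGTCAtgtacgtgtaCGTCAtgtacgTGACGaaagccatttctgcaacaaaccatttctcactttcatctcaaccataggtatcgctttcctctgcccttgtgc
WRKY70 promoter, chr3:20910624-20910873, minus strand: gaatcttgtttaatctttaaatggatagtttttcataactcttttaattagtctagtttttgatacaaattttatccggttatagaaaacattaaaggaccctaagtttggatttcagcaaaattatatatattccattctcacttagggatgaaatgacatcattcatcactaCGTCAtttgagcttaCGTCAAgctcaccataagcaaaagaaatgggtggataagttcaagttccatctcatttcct
WRKY18 promoter, chr4:15382527-15382776, plus strand: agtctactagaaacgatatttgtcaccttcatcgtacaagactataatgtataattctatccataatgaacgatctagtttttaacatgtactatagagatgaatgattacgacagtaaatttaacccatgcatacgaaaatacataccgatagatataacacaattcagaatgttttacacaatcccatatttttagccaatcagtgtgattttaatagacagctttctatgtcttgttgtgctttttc
ICS1 promoter, chr1:28070045-28070294, plus strand: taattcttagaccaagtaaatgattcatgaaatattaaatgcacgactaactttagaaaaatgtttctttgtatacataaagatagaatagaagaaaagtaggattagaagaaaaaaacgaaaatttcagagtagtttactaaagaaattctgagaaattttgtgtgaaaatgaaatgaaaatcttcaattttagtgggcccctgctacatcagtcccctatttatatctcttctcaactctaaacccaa
The PCC1 window held 3 copies of TGACG, which lie 104, 89 and 78 bases before the start, and no TTGAC. Among 27443 promoters of protein-coding genes 0.6% held at least 3 copies of TGACG. The WRKY70 window held 2 copies of TGACG, at 76 and 61 bases, and 1 TTGAC at 60 bases that overlaps the nearer of them. A share of 3.2% of all promoters held at least 2 copies of TGACG. Neither core was found in these windows of WRKY18 and ICS1. Over the 9 member promoters read, TTGAC was present in 3 windows (EDS1, WRKY70 and PR5), against 44.9% of all promoters, and TGACG in 2, against 18.6%. Such matches describe letters only.

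The plot of member levels gives every library's value. Per kilobase of exon, the only scale on which levels are compared between genes here, PCC1 had the highest mean over the 8 libraries (176 CPM per kb), followed by WRKY70 (79.9), PR5 (41.9), PR1 (30.3), PR2 (25.1), WRKY18 (24.8), NPR1 (16.8), EDS1 (15.5), PAD4 (10.2) and ICS1 (4.81 CPM per kb). All 10 genes were thus well above the floor in every library, the lowest count being 52, for ICS1 in msh1 TRAP replicate 2.

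**Figure D1:**
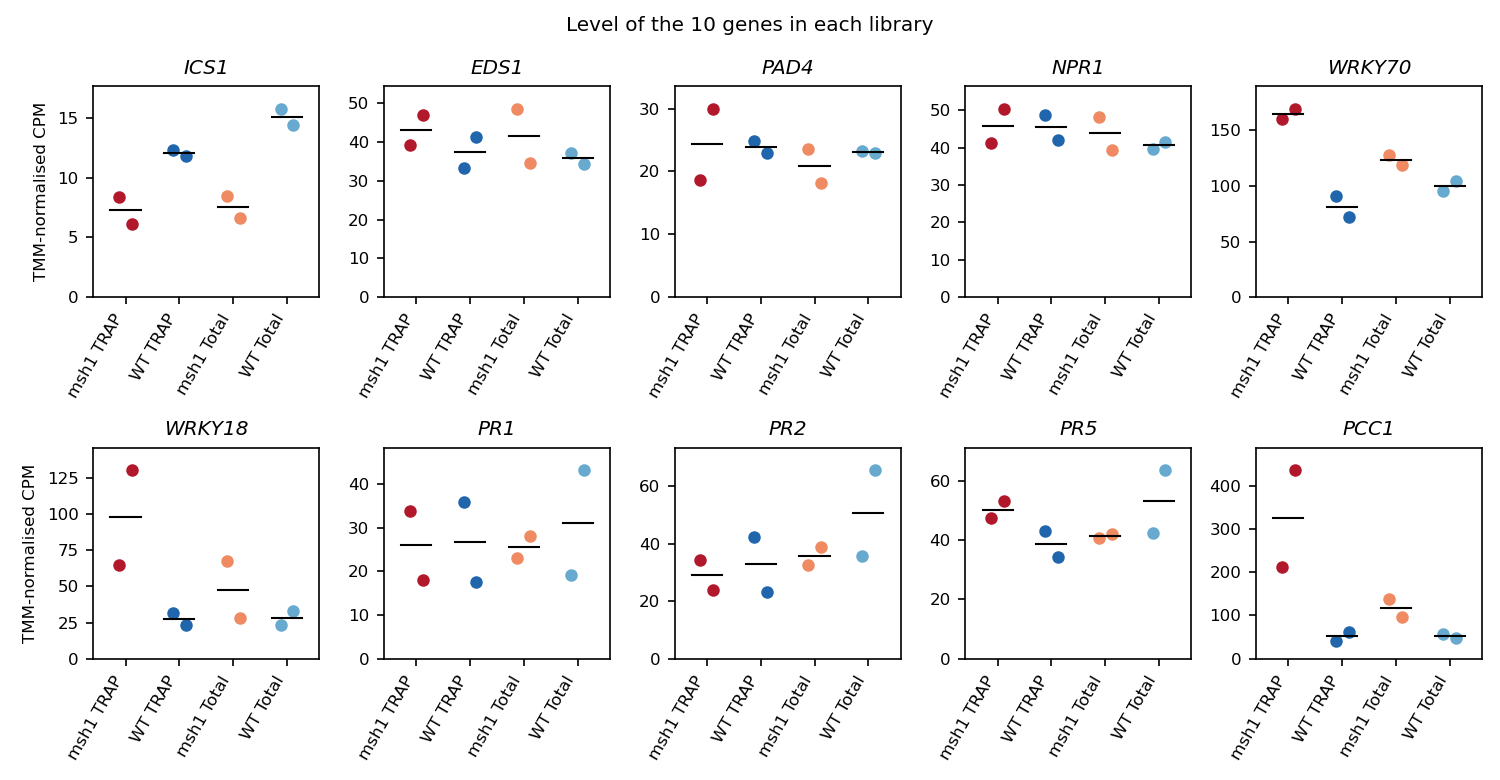
Level of each of the 10 genes in TMM-normalised CPM (vertical axis, from 0, scaled per gene) in the libraries of msh1 TRAP, WT TRAP, msh1 Total and WT Total. Points are libraries and horizontal bars are group means (n = 2). PCC1, WRKY70 and WRKY18 stand highest in msh1 TRAP, at means of 324.4, 165.2 and 98.0 CPM, and ICS1 is lower in both msh1 groups than in the WT groups.

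ICS1, the isochorismate synthase at the start of the pathway (chromosome 1, 28070295 to 28074177, plus strand), was lower in msh1 in both fractions. Its level was 8.41 and 6.12 CPM in msh1 TRAP, against 12.3 and 11.8 CPM in WT TRAP. In whole-stem RNA it was 8.49 and 6.63 CPM in msh1 Total, against 15.8 and 14.4 CPM in WT Total. In neither fraction did the libraries of the genotypes overlap. The log2 fold change was -0.73 ± 0.23 in TRAP (SE, n = 2 libraries per group, adjusted p = 0.0211, edgeR quasi-likelihood test with Benjamini-Hochberg adjustment, as for every adjusted p below) and -1.0 ± 0.21 in Total (adjusted p = 0.0184), where the fold stood at 0.499. The difference between these effects, 0.27 ± 0.31, did not pass the threshold of 0.05 (adjusted p = 0.592), and neither did the difference of TRAP from Total within msh1 (-0.06 ± 0.23, adjusted p = 0.882) or within WT (-0.33 ± 0.21, adjusted p = 0.413). The call in Total was lost without any 1 of its 4 libraries, at an adjusted p of 0.0762 without msh1 Total 1, 0.169 without msh1 Total 2, 0.179 without WT Total 1 and 0.0922 without WT Total 2. That in TRAP was lost without msh1 TRAP 2 (0.0898), WT TRAP 1 (0.0741) or WT TRAP 2 (0.0701), in a fit of the TRAP libraries alone (0.0564) and once a trend with transcript length was removed (0.0714), while the fold change stayed negative throughout, between -0.74 and -0.55 in those 5 settings.

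EDS1 and PAD4, the paired regulators that promote salicylic acid synthesis, passed the test in no comparison. EDS1 (chromosome 3, 17755329 to 17758147, minus strand) stood at 39.1 and 47.0 CPM in msh1 TRAP, against 33.4 and 41.2 CPM in WT TRAP, and 48.6 and 34.7 CPM in msh1 Total, against 37.2 and 34.4 CPM in WT Total. The libraries of every pair of groups compared overlapped. The msh1 effect on EDS1 was 0.20 ± 0.19 in TRAP (adjusted p = 0.413) and 0.22 ± 0.18 in Total (adjusted p = 0.637) on the log2 scale. Its neighbouring paralog AT3G48080 stood at 7.9 and 9.42 CPM in msh1 TRAP and 9.88 and 7.9 CPM in WT TRAP. It shares at most 87.0% of bases with EDS1 over the aligned parts of the gene, introns included. PAD4 (chromosome 3, 19431095 to 19434450, plus strand) stood at 18.6 and 30.0 CPM in msh1 TRAP, against 24.8 and 22.9 CPM in WT TRAP, and 23.5 and 18.1 CPM in msh1 Total, against 23.3 and 22.9 CPM in WT Total. Its WT libraries lay close together, whereas those of msh1 TRAP lay furthest apart. The msh1 effect on PAD4 was 0.03 ± 0.22 in TRAP (adjusted p = 0.919) and -0.15 ± 0.21 in Total (adjusted p = 0.797).

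NPR1, the receptor and coactivator (chromosome 1, 23852748 to 23855658, minus strand), varied least between groups. Its level was 41.1 and 50.4 CPM in msh1 TRAP, against 48.8 and 42.1 CPM in WT TRAP, and 48.2 and 39.4 CPM in msh1 Total, against 39.5 and 41.6 CPM in WT Total. Group means lay between 40.6 and 45.8 CPM, less than the spread within msh1 TRAP. The msh1 effect was 0.01 ± 0.17 in TRAP (adjusted p = 0.960) and 0.11 ± 0.16 in Total (adjusted p = 0.814). A non-coding locus on the opposite strand, AT1G08667, covers 214 bases or 8.2% of the NPR1 exons and held 716 counts over the 8 libraries, against 3634 for NPR1, and the library kit named in the labels does not mark strand, so their reads cannot be told apart there.

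The transcription factor genes WRKY70 and WRKY18 were higher in msh1 TRAP than in WT TRAP. WRKY70, which promotes salicylic acid responses and holds back jasmonate responses (chromosome 3, 20908711 to 20910623, minus strand), had 160.6 and 169.7 CPM in msh1 TRAP, against 90.8 and 72.1 CPM in WT TRAP. In whole-stem RNA it had 127.5 and 119.3 CPM in msh1 Total, against 95.5 and 104.3 CPM in WT Total. The genotypes did not overlap in either fraction, and the gap was wider in TRAP. The fold was 2.03 in TRAP (log2 1.02 ± 0.16, adjusted p = 0.000359), and the log2 difference in Total was 0.30 ± 0.15 (adjusted p = 0.353). The test of the difference between them gave 0.72 ± 0.22 (adjusted p = 0.0441). This last call was lost without any 1 of 6 libraries (msh1 TRAP 2, WT TRAP 2 and each of the 4 Total libraries, adjusted p 0.0752 to 0.199, log2 difference 0.56 to 0.78) with upper-quartile scaling (0.0577) and with the length trend removed (0.126). The call in TRAP was kept in 15 of 15 alternatives, with log2 fold changes between 0.80 and 1.20.

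WRKY18, a salicylic acid-induced factor that acts with WRKY40 and WRKY60 (chromosome 4, 15382777 to 15385100, plus strand), had 65.2 and 130.7 CPM in msh1 TRAP, against 31.6 and 23.4 CPM in WT TRAP. In whole-stem RNA it had 67.6 and 27.8 CPM in msh1 Total, against 23.2 and 32.7 CPM in WT Total. The TRAP libraries of the genotypes did not overlap although the msh1 replicates differed widely, and in Total a single msh1 library stood above both WT libraries. The fold was 3.58 in TRAP (log2 1.84 ± 0.39, adjusted p = 0.00259). It was called in 15 of 15 alternatives, with 1.20 at the lowest, without msh1 TRAP replicate 2 (adjusted p = 0.0435). The log2 difference in Total was 0.76 ± 0.38 (adjusted p = 0.341) and 0.00 without msh1 Total replicate 1. The test of the difference between fractions did not pass (1.08 ± 0.54, adjusted p = 0.193). It passed without msh1 TRAP 1 (1.54, adjusted p = 0.0493), without msh1 Total 1 (1.85, adjusted p = 0.0384) and with no filter (0.000447), and was at 0.44 without msh1 TRAP 2 and 0.57 without msh1 Total 2.

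The classical output genes PR1, PR2 and PR5 passed the test in no comparison. PR1, an extracellular antimicrobial protein (chromosome 2, 6241640 to 6242541, minus strand), had 33.9 and 18.1 CPM in msh1 TRAP, against 35.8 and 17.5 CPM in WT TRAP, and 23.1 and 28.2 CPM in msh1 Total, against 19.1 and 43.2 CPM in WT Total. In 3 of the 4 groups the replicates differed by more than the group means did. The msh1 effect was -0.03 ± 0.40 in TRAP (adjusted p = 0.964) and -0.29 ± 0.38 in Total (adjusted p = 0.785), and without WT Total replicate 2 the value in Total was 0.43. PRB1, a neighbouring relative of PR1 with at most 80.4% identity to it, had reads in 1 library only, at 0.187 CPM, which is under the floor. PR2, a beta-1,3-glucanase that attacks fungal walls (chromosome 3, 21188397 to 21189967, minus strand), had 34.4 and 23.7 CPM in msh1 TRAP, against 42.3 and 23.2 CPM in WT TRAP, and 32.6 and 39.0 CPM in msh1 Total, against 35.7 and 65.6 CPM in WT Total. As for PR1, the highest value is in WT Total replicate 2. The msh1 effect on PR2 was -0.17 ± 0.32 in TRAP (adjusted p = 0.702) and -0.50 ± 0.30 in Total (adjusted p = 0.450). PR5, a thaumatin-like protein (chromosome 1, 28177670 to 28179022, plus strand), had 47.4 and 53.1 CPM in msh1 TRAP, against 43.0 and 34.4 CPM in WT TRAP, and 40.7 and 42.0 CPM in msh1 Total, against 42.5 and 63.7 CPM in WT Total. The genotypes did not overlap in either fraction, with msh1 above WT in TRAP and below it in Total. These differences were 0.38 ± 0.20 in TRAP (adjusted p = 0.139) and -0.36 ± 0.19 in Total (adjusted p = 0.377), and the test between them gave 0.74 ± 0.27 (adjusted p = 0.0854, and 0.0244 with no filter). Without WT Total replicate 2 the value in Total was -0.04 for PR5 and 0.00 for PR2, and the interaction of PR5 was 0.42. With the length trend removed that interaction was 0.29 and the TRAP difference -0.13.

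PCC1, a small membrane-associated protein of a cysteine-rich family whose transcript follows pathogen attack and the circadian clock (chromosome 3, 7845823 to 7846833, minus strand), showed the largest genotype difference of the 10 genes in either fraction. It had 212.5 and 436.3 CPM in msh1 TRAP, against 40.8 and 61.7 CPM in WT TRAP. In whole-stem RNA it had 139.0 and 95.5 CPM in msh1 Total, against 56.0 and 48.7 CPM in WT Total. The genotypes did not overlap in either fraction, and both msh1 TRAP libraries stood above both msh1 Total libraries. The fold in TRAP was 6.31 (log2 2.66 ± 0.32, adjusted p = 8.12e-05), and it stayed called in 16 of 16 alternatives, at log2 2.00 without msh1 TRAP replicate 2. In Total the log2 difference was 1.16 ± 0.30, which missed the threshold (adjusted p = 0.0542) and passed it in 6 alternatives, among them the fit of the Total libraries alone (0.00321) and upper-quartile scaling (0.0478). Within msh1, TRAP exceeded Total by 1.47 ± 0.30 (adjusted p = 0.00458; 1.22 and 0.0561 without msh1 Total replicate 2; 0.85 and 0.0353 without msh1 TRAP replicate 2), while WT TRAP and WT Total, at means of 51.2 and 52.3 CPM, overlapped. The msh1 effect was larger in TRAP than in Total by 1.49 ± 0.43 (adjusted p = 0.0344), a call lost with DESeq2 (0.0896) and without any 1 of 6 libraries (msh1 TRAP 2, WT TRAP 1, WT TRAP 2, msh1 Total 2, WT Total 1 or WT Total 2, adjusted p 0.0578 to 0.132, log2 difference 0.83 to 1.83), and with the length trend removed (0.94, adjusted p = 0.159).

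PCC1 shares sequence with its neighbour AT3G22235, so the split of reads between them is uncertain. Of the 773 exon bases of PCC1, 436 (56.4%) lie in an alignment of at least 95% identity over at least 100 bases, and the best stretch was 99.5% identical over 547 bases, whereas no exon base of the other 9 genes met that rule. AT3G22235 had 966 and 1384 CPM in msh1 TRAP, against 164.5 and 208.4 CPM in WT TRAP, and 548 and 474 CPM in msh1 Total, against 351.5 and 298 CPM in WT Total. The neighbour rose in msh1 TRAP with PCC1 and, unlike PCC1, was lower in WT TRAP than in WT Total (-0.80 ± 0.20, adjusted p = 0.0430, kept in 7 of 16 alternatives and lost without any 1 of the 4 WT libraries, at 0.116 to 0.343). With the counts of the pair summed, a choice made after seeing the data, the msh1 effect was 2.66 in TRAP (adjusted p = 3.21e-05) and 0.74 in Total (adjusted p = 0.0931). For the sum, the difference between these effects was 1.92 (adjusted p = 0.00345). A further neighbour of the family, AT3G22240, with 73.3% identity to PCC1, had 9.04 and 8.48 CPM in msh1 TRAP, against 6.16 and 5.27 CPM in WT TRAP, and 4.85 and 3.63 CPM in msh1 Total, against 7.92 and 8.23 CPM in WT Total. In Total it was thus lower in msh1 (-0.94 ± 0.24, adjusted p = 0.0472, a call kept in 6 of 15 alternatives and lost without any 1 of the Total or WT TRAP libraries, at 0.0617 to 0.311). Its interaction was 1.56 ± 0.34 (adjusted p = 0.0113).

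**Figure D2:**
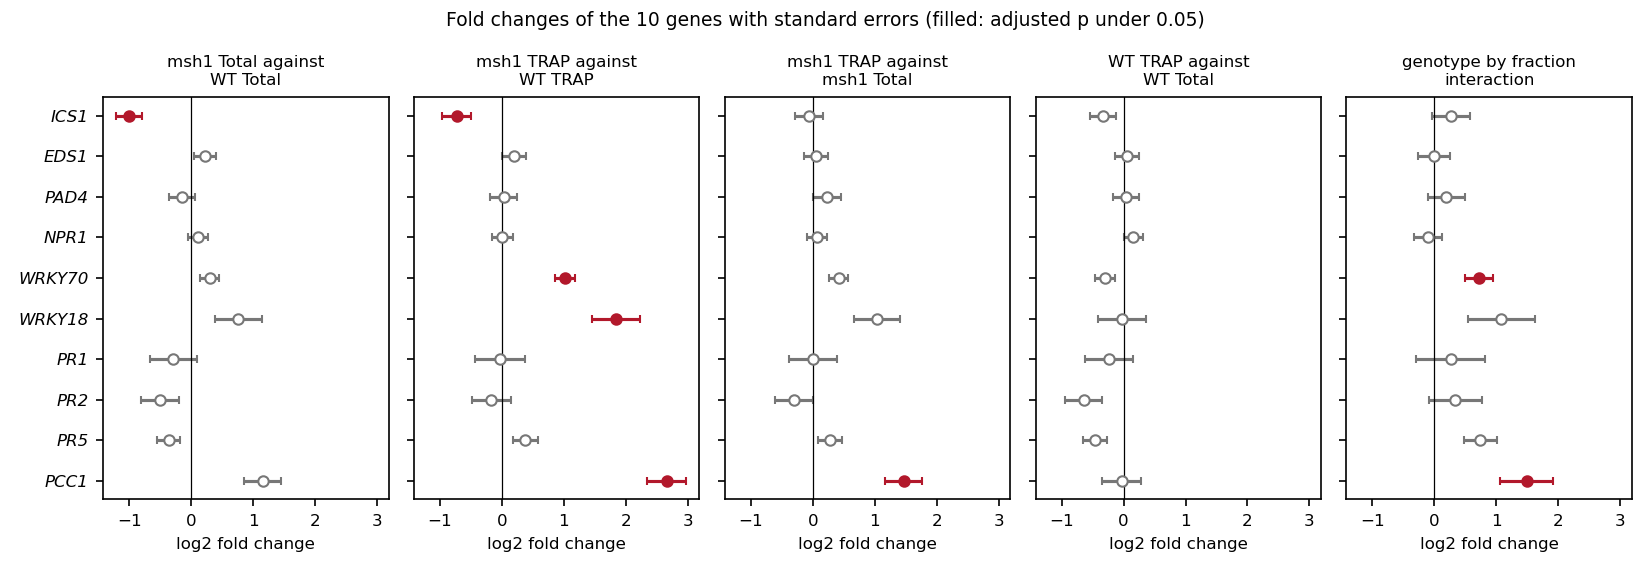
Log2 fold change (horizontal axis, with SE) of the 10 genes, 1 per row, in 5 comparisons: msh1 Total against WT Total, msh1 TRAP against WT TRAP, msh1 TRAP against msh1 Total, WT TRAP against WT Total, and the genotype by fraction interaction; filled points have an adjusted p under 0.05. The filled points are ICS1 on the lower side in both genotype comparisons, WRKY70, WRKY18 and PCC1 on the higher side in TRAP, PCC1 in msh1 TRAP against msh1 Total, and WRKY70 and PCC1 in the interaction.

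Counted over the 10 genes, msh1 TRAP against WT TRAP had 3 called higher and 1 called lower, where 20.8% of all genes tested were called higher and 20.8% lower, 41.6% in either direction. The share of members called was thus close to the background. The libraries of the genotypes did not overlap for 5 of the 10, against 67.3% of all genes, and the median log2 fold change was 0.12, against -0.02 over all genes. In msh1 Total against WT Total 1 of 10 was called, lower, where 3.89% of all genes were called (0.821% higher, 3.07% lower). For whole-stem RNA 4 of 10 did not overlap, against 57.3% of all genes, and the median was -0.02, against 0.00. Within msh1, TRAP against Total had 1 called higher, where 26.2% of all genes were called (14.1% higher, 12.1% lower). Of the members 3 of 10 did not overlap, against 62.5%, and the median was 0.15, against -0.03. Within WT the same comparison had 0 of 10 called by edgeR and by DESeq2, with 1 at an unadjusted p under 0.05 (PR5, -0.46 ± 0.19), where 5.07% of all genes were called (3.41% higher, 1.67% lower). Here 3 of 10 did not overlap, against 55.6%, and the median was -0.14, against -0.06. The interaction had 2 called higher, where 15.6% of all genes were called (9.01% higher, 6.61% lower), and a median of 0.30, against -0.01. The genotype effects in TRAP and Total come from different libraries, and each comparison of TRAP with Total shares its libraries with a genotype comparison.

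The wider pathway was described with 82 further genes in 8 lists by role, of which 75 were tested. Between msh1 TRAP and WT TRAP 19 were called higher and 8 lower, with a median of 0.17, and in msh1 Total against WT Total 0 were called higher and 3 lower, with a median of -0.07. The 27 called of 75 in TRAP and the 3 of 75 in Total again lie near the shares over all genes, 41.6% and 3.89%. Within msh1, TRAP against Total had 14 called higher and 3 lower (median 0.32), where 14.1% of all genes were called higher and 12.1% lower. Within WT the counts were 0 and 1 (median -0.09), where 3.41% and 1.67% of all genes were called. The interaction had 7 higher and 0 lower (median 0.42), where 9.01% and 6.61% of all genes were called. Those 7 were AT3G22235, AT3G22240, GSTF6, GSTF7, NUDT7, WRKY25 and WRKY60. DESeq2 called 24, 3, 14, 1 and 7 genes in these 5 comparisons.

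In salicylic acid synthesis and its regulators, 1 of 8 genes was called higher and 2 lower in msh1 TRAP, close to the 20.8% of all genes called in each direction. SARD1, a transcription factor that activates ICS1, rose to 41.3 and 51.9 CPM in msh1 TRAP, against 26.3 and 17.6 CPM in WT TRAP (1.09 ± 0.22, adjusted p = 0.00182). PBS3, the enzyme that acts on isochorismate after ICS1, moved the other way, with 13.8 and 12.4 CPM in msh1 TRAP, against 24.6 and 26.4 CPM in WT TRAP (-0.97 ± 0.17, adjusted p = 0.000824). In whole-stem RNA PBS3 had 15.9 and 18.9 CPM in msh1 Total, against 27.5 and 28.1 CPM in WT Total (-0.67 ± 0.16, adjusted p = 0.0345). The call for PBS3 in Total was lost in 8 of 15 alternatives, among them leaving out any 1 of the 4 Total libraries (adjusted p 0.0881 to 0.462), WT TRAP 1 (0.0501) or WT TRAP 2 (0.0599). The TRAP calls of SARD1 and PBS3 were kept in all 15. GIP2, on the opposite strand, covers 441 bases or 18.4% of the SARD1 exons and held 806 counts, against 2567 for SARD1. Reads of the 2 genes cannot be told apart there. ICS2, the paralog of ICS1, had 3.31 and 5.06 CPM in msh1 TRAP, against 6.42 and 9.22 CPM in WT TRAP (-0.90 ± 0.29, adjusted p = 0.0231). EDS5, the transporter that exports the precursor from the plastid, was lower in msh1 TRAP, at 5.61 and 7.54 CPM, than in msh1 Total, at 11.6 and 9.86 CPM (-0.70 ± 0.22, adjusted p = 0.0367), a call kept in 6 of 16 alternatives and lost, among others, without msh1 TRAP 1 (0.185), msh1 Total 1 (0.202) or WT TRAP 2 (0.0652). In turnover and conjugation 0 of 8 rose and 1 fell in msh1 TRAP. That gene was MES9, a methyl salicylate esterase, with 1.4 and 2.12 CPM in msh1 TRAP, against 6.03 and 5.67 CPM in WT TRAP (-1.72 ± 0.36, adjusted p = 0.00272), and with 0.84 and 1.03 CPM in msh1 Total, against 4.8 and 7.53 CPM in WT Total (-2.71 ± 0.37, adjusted p = 0.00117).

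Among EDS1 partners and helper receptors, 0 of 8 were called higher and 2 lower in msh1 TRAP against WT TRAP, beside 20.8% of all genes in each direction. ADR1-L1 and ADR1-L2, helper immune receptors that act with the EDS1 and PAD4 pair, were those 2, at -0.75 ± 0.15 (adjusted p = 0.00199) and -0.65 ± 0.15 (adjusted p = 0.00427). Both were also lower in msh1 TRAP than in msh1 Total, by log2 values of -0.51, a difference lost without msh1 Total replicate 1 (adjusted p = 0.232 for ADR1-L1 and 0.219 for ADR1-L2) and in 6 other alternatives for each. The pipecolate branch of systemic resistance had 0 of 4 called there by edgeR and by DESeq2, with 1 at an unadjusted p under 0.05. Of the NPR family, TGA factors and NIMINs, 6 of 13 were called higher and 0 lower, where 20.8% of all genes were called in each direction, with a median of 0.46, and DESeq2 called 3. Among them were TGA5, a factor that NPR1 uses to reach promoters (0.77 ± 0.21, adjusted p = 0.00987), and NIMIN-2, an NPR1-binding protein (1.10 ± 0.40, adjusted p = 0.0412), which was at 0.09 (adjusted p = 0.844) without msh1 TRAP replicate 2 and at 1.73 without msh1 TRAP replicate 1. Between msh1 TRAP and msh1 Total 5 of these 13 rose, where 14.1% of all genes were called higher, including TGA3, TGA4, TGA5 and TGA7 at 0.45 to 0.78. Each of these 4 calls was lost without msh1 Total replicate 2 (adjusted p 0.0785 to 0.229), and those of TGA3, TGA5 and TGA7 also without msh1 Total replicate 1 (0.0821 to 0.200).

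Of 10 other WRKY genes linked to salicylic acid, 5 were called higher and 0 lower in msh1 TRAP against WT TRAP, where 20.8% of all genes were called in each direction, with a median of 1.02. In Total 0 of 10 were called by edgeR and by DESeq2, where 3.89% of all genes were called in either direction, 2 had an unadjusted p under 0.05 and the median was 0.02. WRKY25 had 56.2 and 66.4 CPM in msh1 TRAP, against 18.2 and 14.1 CPM in WT TRAP (1.93 ± 0.20, adjusted p = 4.83e-05), and 35.3 and 26.6 CPM in msh1 Total, against 16.9 and 21.1 CPM in WT Total. The effect on WRKY25 in TRAP exceeded that in Total by 1.23 ± 0.28 (adjusted p = 0.0132; 0.0707 without WT TRAP 2, 0.0665 without msh1 Total 2, 0.0773 without WT Total 2). WRKY60, the partner of WRKY18, had 21.5 and 14.7 CPM in msh1 TRAP, against 9.75 and 7.6 CPM in WT TRAP (1.07 ± 0.27, adjusted p = 0.00753), and its interaction was 1.37 ± 0.38 (adjusted p = 0.0306), a call kept in 9 of 14 alternatives and lost without msh1 TRAP 1 (0.0558), WT TRAP 2 (0.124), msh1 Total 1 (0.112) or WT Total 2 (0.143). WRKY40, the other partner, was not called, with 80.5 and 40.6 CPM in msh1 TRAP and 55.7 and 29.2 CPM in WT TRAP. WRKY38, WRKY50 and WRKY53 were called at 2.48, 1.54 and 0.97. WRKY38 had 6 and 6 counts in WT TRAP (0.77 and 0.608 CPM), against 28 and 35 counts in msh1 TRAP, so its fold change rests on few reads. For WRKY53, 311 bases or 20.5% of the exons overlap 3xHMG-box2 on the opposite strand. That gene held 4529 counts, against 3186 for WRKY53, and their reads cannot be told apart there.

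Of 17 other salicylic acid-responsive and defence products, 6 were called higher and 1 lower in msh1 TRAP against WT TRAP (median 0.62), a share close to the 41.6% of all genes called in either direction. NUDT7, a hydrolase that restrains EDS1-dependent defence, had 73.0 and 93.4 CPM in msh1 TRAP, against 39.9 and 30.8 CPM in WT TRAP (1.24 ± 0.19, adjusted p = 0.000350), and 52.3 and 42.2 CPM in msh1 Total, against 46.8 and 55.2 CPM in WT Total. LURP1, needed for resistance to a downy mildew, had 145.1 and 247.4 CPM in msh1 TRAP, against 79.9 and 84.7 CPM in WT TRAP (1.25 ± 0.21, adjusted p = 0.000708). The glutathione transferase gene GSTF6 had 108.5 and 97.6 CPM in msh1 TRAP, against 61.2 and 46.9 CPM in WT TRAP (0.93 ± 0.16, adjusted p = 0.000763), and 54.4 and 52.1 CPM in msh1 Total, against 72.1 and 80.0 CPM in WT Total. GSTF6 thus lay above WT in TRAP and below it in Total, without overlap, and its interaction was 1.45 ± 0.23 (adjusted p = 0.00296). Its neighbour GSTF7 is a close relative, and the identity between them was not measured here. The split of reads between them is therefore uncertain. PR4, a chitin-binding PR protein, was called at 1.44 ± 0.35 (adjusted p = 0.00585). BG3, the beta-1,3-glucanase gene next to PR2, was the gene called lower, with 17.5 and 10.5 CPM in msh1 TRAP, against 18.3 and 40.2 CPM in WT TRAP (-1.08 ± 0.34, adjusted p = 0.0233), and was at -0.38 (adjusted p = 0.430) without WT TRAP replicate 2. Among negative regulators of salicylic acid defence 1 of 7 rose and 2 fell, among those that fell SSI2, a plastid fatty acid desaturase whose loss raises salicylic acid in Arabidopsis (-0.79 ± 0.15, adjusted p = 0.00135).

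Of the 20 pathway genes named by the rule in msh1 TRAP against WT TRAP, 9 were called in all 15 alternatives: AT3G22235, WRKY25, MES9, LURP1, NUDT7, SARD1, PBS3, GSTF6 and SSI2. The other 11 (WRKY38, WRKY50, PR4, NIMIN-2, BG3, WRKY60, GSTF7, SNI1, WRKY53, ICS2 and TGA5) lost the call without WT TRAP replicate 2, at adjusted p from 0.0585 to 0.430. Leaving out msh1 TRAP replicate 2 also ended the calls of NIMIN-2, BG3, SNI1, WRKY53 and TGA5, and leaving out msh1 TRAP replicate 1 those of WRKY50, SNI1 and ICS2, while their log2 fold changes kept their sign.

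**Figure D3:**
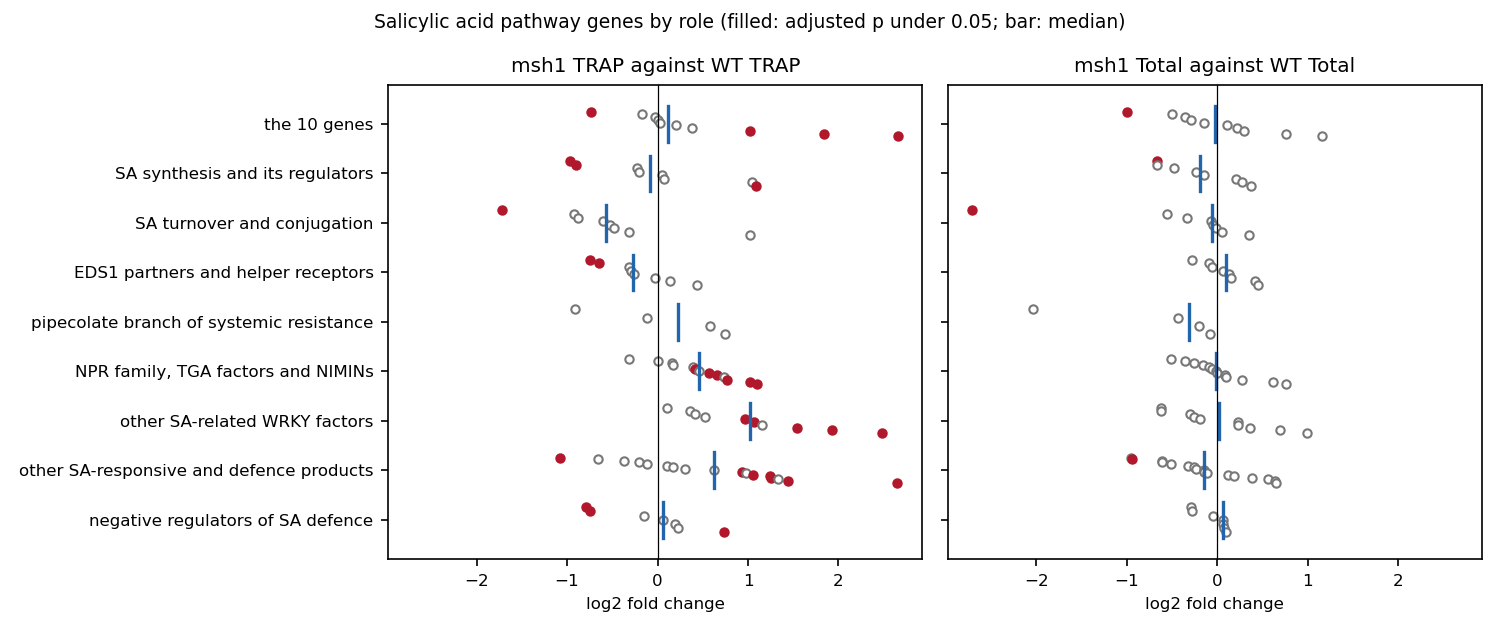
Log2 fold change (horizontal axis) of each tested gene in the 10 members and the 8 pathway lists (rows), for msh1 TRAP against WT TRAP and msh1 Total against WT Total; filled points have an adjusted p under 0.05 and bars are medians. The WRKY list lies furthest to the right in TRAP, at a median of 1.02, and at 0.02 in Total.

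Markers of leaf senescence, in which salicylic acid also takes part, were read beside these genes. Their summed level was 93.9 and 125.3 CPM in msh1 TRAP, against 91.0 and 98.8 CPM in WT TRAP, and 66.6 and 66.6 CPM in msh1 Total, against 118.9 and 133.3 CPM in WT Total. Between msh1 TRAP and WT TRAP SEN1 rose, with 38.2 and 78.9 CPM in msh1 TRAP, against 16.8 and 11.7 CPM in WT TRAP. SAG12 and SAG29 fell there, where 20.8% of all genes were called in each direction. In msh1 Total against WT Total 3 of 6 fell and 0 rose, where 3.07% of all genes were called lower and 0.821% higher. SAG12, a protease of late senescence, had 9.14 and 14.9 CPM in msh1 Total, against 48.8 and 37.2 CPM in WT Total. The part of senescing tissue in the results on the 10 genes was not tested.

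Likeness of pattern was computed over the 8 libraries for PR1 and ICS1, among 15940 genes with a mean of at least 5 CPM. The genes whose log2 CPM followed that of PR1 most closely were AT1G02410 (Pearson's r = 0.968), AT1G34420 (0.942), AT1G34630 (0.933), AT2G42950 (0.933) and AT3G09020 (0.911). For ICS1 they were AT1G57590 (0.959), SEU (0.958), AT1G78880 (0.954), CYP59 (0.951) and MIOX1 (0.950). None of them is in the pathway lists, and the libraries share depth and group structure, so these values only describe. Pearson's r takes no account of the size of a change. AT1G02410 lay between 15.1 and 17.3 CPM over the 8 libraries and PR1 between 17.5 and 43.2 CPM. MIOX1 lay between 4.59 and 59.4 CPM and ICS1 between 6.12 and 15.8 CPM.

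**Figure D4:**
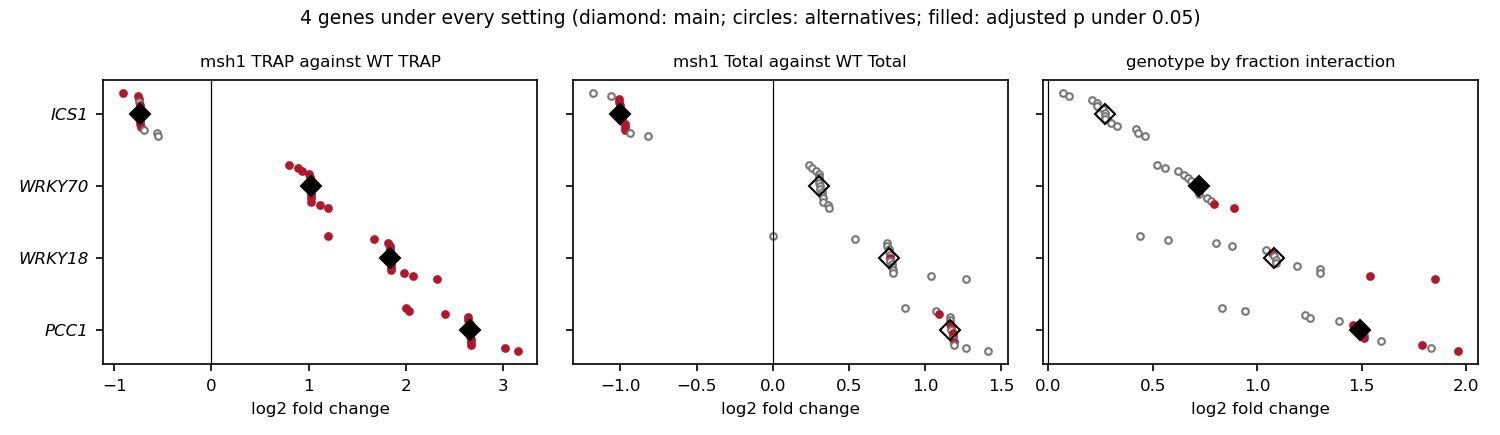
Log2 fold change (horizontal axis) of ICS1, WRKY70, WRKY18 and PCC1 (rows) under the main setting (diamond) and each alternative (circles), by comparison; filled symbols have an adjusted p under 0.05. In msh1 TRAP against WT TRAP all symbols of WRKY70, WRKY18 and PCC1 are filled, from 0.80 to 3.15, whereas those of ICS1 are filled in part.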

How the data were processed

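The 8 libraries held mRNA of Arabidopsis floral stems, grouped by sample title. Column-purified RNA was made into TruSeq RNA v2 libraries and read as paired ends on a HiSeq instrument, per the labels' protocols. The authors deposited raw read counts per locus, not normalized, in 1 table per library. The submitters' processing notes name the TAIR10 build and DESeq2, whereas aligner and counter were not given in the sources used here. Each table ends in 5 lines that name no gene, which were left out: reads in no feature were 38.5 to 41.68% of the listed counts, reads without a unique alignment 12.35 to 18.95% and ambiguous reads 0.16 to 1.12%. Genes with near-identical copies thus lost reads. Locus identifiers were matched to the TAIR10.1 annotation for 32548 of 32833.

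Counts were tested in R 4.3.3 with edgeR 4.0.16: filterByExpr left 21202 genes, library sizes were scaled by TMM (factors 0.875, in msh1 TRAP replicate 2, to 1.066), and quasi-likelihood F tests came from 1 model of the 4 groups without a replicate block (4 residual degrees of freedom). Each SE is the absolute log2 fold change divided by the square root of its F statistic. It thus rests on the model of the 4 groups, not on the compared libraries alone. Benjamini-Hochberg adjustment covered all genes tested, 0.05 was the threshold, and the interaction subtracts the msh1 effect in Total from the effect in TRAP. No source says that replicates came from separately grown plants beyond calling them biological, so p-values measure the spread between these libraries, which may be technical. On simulated counts for msh1 Total against WT Total (20858 genes) the test recovered 84% of genes changed by a fold of 2. It recovered 100% of those changed by a fold of 4, with 8 false calls. The simulation gave every gene the same spread between replicates, a biological coefficient of variation of 0.138. Changes were placed only in genes with a mean of at least 5 CPM. These shares therefore do not hold for genes with a wider spread, such as PR1 and WRKY18.

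The alternatives were DESeq2 1.42.0, RLE and upper-quartile factors, no filter, a replicate block, a fit of the compared libraries alone, each library left out and, chosen after seeing the data, a trend with exon length removed, crossed replicate numbers, and PCC1 counted with AT3G22235. Genes named from the lists are, per comparison, up to 20 past the threshold by size of change with a mean of at least 1 CPM, and paralogs of the 10 genes; the 4 TGA genes, ADR1-L1 and ADR1-L2 qualified in msh1 TRAP against msh1 Total. The members, lists and tests were chosen with earlier results of these data known. WRKY40, SEN1, SAG12 and SAG29 fall outside that rule and were named after their values were seen. Promoter windows and identities between loci were read from the TAIR10.1 genome. The promoter of PR1 is not reported here.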

Additional observations from a re-analysis of the deposited data

Results flagged for a closer look

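For 9 of the genes named, the msh1 effect in TRAP differed from that in Total in the interaction test (edgeR, adjusted p under 0.05), and each difference was positive. They are 2 of the 10 members and 7 of the 75 other pathway genes tested. The naming rule picks pathway genes that pass a test, so the number named is no result in itself. Among the members these were PCC1, at 1.49 on the log2 scale, and WRKY70, at 0.72. Among the other pathway genes AT3G22235 was at 2.00, AT3G22240 at 1.56, GSTF6 at 1.45, WRKY60 at 1.37, NUDT7 at 1.35, GSTF7 at 1.32 and WRKY25 at 1.23. The split of reads between PCC1 and AT3G22235 is uncertain, so these 2 calls may not be separate. The same holds for GSTF6 and its neighbour GSTF7. The calls of AT3G22235, GSTF6 and NUDT7 were kept in every one of their 14 alternatives, and those of the other 6 were not. WRKY70 kept its call in 5 of 14 alternatives and PCC1 in 7 of 15. For WRKY60 and GSTF7 it was kept in 9 of 14, and for AT3G22240 and WRKY25 in 11 of 14. In the same comparison 9.01% of all genes tested were called higher and 6.61% lower.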

How the results depend on the processing

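The genotype calls of WRKY70, WRKY18 and PCC1 in TRAP were kept in 15 of 15, 15 of 15 and 16 of 16 alternatives. Leaving out a library leaves 1 in its group, which is then assumed to vary like the other groups. Equal replicate numbers showed no sign of pairing the libraries: deviations of same-numbered libraries correlated at -0.243 to 0.083. The lowest values were those of TRAP with Total within WT (-0.243) and within msh1 (-0.198). With crossed replicate numbers these would be positive. The labels do not say whether such libraries are pairs, and the cause of these values was not tested.

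Of the 10 members, 1 was called in msh1 Total against WT Total, 2 with upper-quartile factors, 3 with no filter, 2 in the fit of the 4 libraries compared, 2 with the length trend removed and 0 to 2 without 1 library. In msh1 TRAP against WT TRAP the 4 calls became 3 to 4 without 1 library. In msh1 TRAP against msh1 Total the single call became 2 with DESeq2, with RLE factors, with no filter and with crossed replicate numbers as the block, and 0 to 4 without 1 library. In WT TRAP against WT Total there were 0, and 1 with no filter (PR2, log2 -0.65, edgeR adjusted p = 0.00748, against -0.64 and 0.262 in the main test). The 2 interaction calls became 1 with DESeq2, 1 with upper-quartile factors, 4 with no filter, 1 with the replicate block (WRKY70 lost, adjusted p = 0.0673), 0 with the length trend removed and 0 to 3 without 1 library.

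Of the other pathway genes, the 3 calls in msh1 Total became 12 with no filter, 1 with the replicate block, 12 in the fit of 4 libraries and 1 to 8 without 1 library. The 27 calls in msh1 TRAP against WT TRAP became 13 to 29 without 1 library. The 17 calls in msh1 TRAP against msh1 Total became 9 in the fit of 4 libraries and 4 to 19 without 1 library. The single call in WT became 0 with RLE factors, 3 with no filter, 0 with the replicate block, 0 with the length trend removed and 0 to 2 without 1 library. The 7 interaction calls became 13 with no filter, 4 with the length trend removed and 3 to 14 without 1 library. The cause of these shifts was not tested.

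Log2 fold changes that turned sign all belonged to members not called there. In msh1 TRAP against WT TRAP these were NPR1 (-0.01 with upper-quartile factors, -0.19 to 0.22 without 1 library), PR5 (-0.13 with the length trend removed), PAD4 (-0.40 to 0.40 without 1 library), PR1 (-0.48 to 0.57) and PR2 (-0.53 to 0.32). In msh1 Total against WT Total they were, without 1 library, EDS1 (-0.04 to 0.45), PAD4 (-0.34 to 0.03), NPR1 (-0.04 to 0.25) and PR1 (-0.75 to 0.43). In msh1 TRAP against msh1 Total they were ICS1 (0.08 with the length trend removed, -0.23 to 0.15 without 1 library), PR1 (-0.02 with upper-quartile factors, -0.05 with crossed numbers, -0.30 with the length trend removed, -0.43 to 0.39 without 1 library), PR5 (-0.02 with the length trend removed) and, without 1 library, EDS1 (-0.18 to 0.31), PAD4 (-0.17 to 0.61) and NPR1 (-0.10 to 0.28). In WT TRAP against WT Total they were WRKY18 (0.01 in the fit of 4 libraries, -0.26 to 0.24 without 1 library), PCC1 (0.02 in that fit, 0.19 with the length trend removed, -0.30 to 0.24 without 1 library), EDS1 (-0.04 to 0.21), PAD4 (-0.01 to 0.16) and PR1 (-0.84 to 0.47). In the interaction they were EDS1 (0.25 with the length trend removed, -0.24 to 0.25 without 1 library), NPR1 (0.18 and -0.31 to 0.08), PR1 (-0.24 and -0.45 to 0.85), PAD4 (-0.26 to 0.53) and PR2 (-0.17 to 0.82).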
